A study of Mus musculus with 7 samples.

Results

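The arginine transfer RNAs with the anticodon TCT (tRNA-Arg-TCT) were followed through 7 sequencing libraries of the mouse macrophage line RAW264.7 and of the extracellular vesicles (EVs) that this line releases. Members were all rows of the deposited count table named for this family. The rule uses names and no measured value, but members were chosen with earlier results of these data known. They came to 9 rows, of 3894 rows that stand for whole RNAs and 580839 rows in all. Of these, 4 carried the table's prefix for mature tRNAs and stood for the spliced RNAs of the genes tRNA-Arg-TCT-1-1, 2-1, 3-1 and 5-1. The other 5 had no prefix and stood for the unspliced RNAs of these 4 genes and for gene 4-1, which had no spliced row. Sums of unspliced RNA below include the row of gene 4-1, which held at most 0.345% of them in any library.

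Each group was 1 library, so no group had a replicate. The EV groups were, in the order used below, D389N, Dis3l2r, Vector, shDis3l2 and shNS, and the cell groups were shDis3l2 and shNS. shNS lines carried a non-silencing hairpin and shDis3l2 lines a hairpin against Dis3l2. Vector, Dis3l2r and D389N were all shDis3l2 cells with an added construct: an empty vector, a Dis3l2 transgene that resists the hairpin, and Dis3l2 made catalytically inactive by the D389N change. The treatment protocol has doxycycline in the medium for all cells, also during EV harvest, and EVs were banded in a sucrose density gradient, then digested with micrococcal nuclease. The labels do not say whether the lines were clones. Ribosomal RNA depletion is stated for the whole-cell RNA and nothing is stated on it for EV RNA.

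tRNAs carry amino acids to the ribosome, and the family described here, whose anticodon is UCU in RNA, reads the arginine codon AGA. Some tRNA genes hold a short intron next to the anticodon, which the TSEN endonuclease cuts out before the ligase RTCB joins the exons, so for a gene with both rows the unspliced row stands for a precursor and the spliced row for the trimmed product. Dis3l2 is an exoribonuclease that degrades RNA with added uridines at its 3' end. tRNA-Arg-TCT-4-1 is known in mouse as n-Tr20, a tRNA expressed mainly in the nervous system.

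RefSeq annotates 5 tRNA genes of this anticodon on GRCm38.p6, but does not pair them with the row names of the table. n-TRtct5 lies at chr1:173390329-173390402 and has 74 bases. The other 4 have 85 to 87 bases and lie at chr3:122292948-122293032 (n-TRtct2), chr11:69123482-69123568 (n-TRtct4), chr13:21917162-21917247 (n-TRtct3) and chr19:12011588-12011673 (n-TRtct1). No tRNA sequence was used here.

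Counts on whole-RNA rows ranged between 13439408 and 25177102 in the EV libraries and were 32342600 in shDis3l2 cells and 37041326 in shNS cells. Values below are counts divided by that total and multiplied by 1000000 (CPM), or shares of counts, with exact 95% intervals that cover counting error only. tRNA rows made up 70.2% to 76.9% of EV counts, 9.09% of shDis3l2 cell counts and 13.7% of shNS cell counts. The most abundant cell transcript held 46.1% of the counts of shDis3l2 cells and 19.3% of those of shNS cells. CPM is a share of a library, so more of a tRNA and less of other RNA cannot be told apart. Reads that an unspliced row shares with its spliced row, or that near-identical genes share, were divided between rows by estimation, so values of single rows are uncertain in that respect. Neither Dis3l2 itself nor macrophage markers could be looked up, because the table pairs transcripts with no gene names and 0 of them were matched.

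The spliced RNAs of tRNA-Arg-TCT were the bulk of the family in every library. Their summed level was 1893 CPM in D389N EVs, 2271 in Dis3l2r EVs, 3498 in Vector EVs, 3576 in shDis3l2 EVs and 4664 in shNS EVs, against 716 in shDis3l2 cells and 1557 CPM in shNS cells. Every EV library lay above both cell libraries, and no neighbours in this order had overlapping counting intervals. The unspliced RNAs summed to 121 CPM in D389N EVs, 148 in Dis3l2r EVs, 207 in Vector EVs, 242 in shDis3l2 EVs and 126 in shNS EVs, against 8.64 in shDis3l2 cells and 18.8 CPM in shNS cells. The order differed: shNS EVs were the highest EV library for spliced RNA but the second lowest for unspliced RNA. Among neighbours in the unspliced order, the intervals of D389N EVs (116 to 126 CPM) and of shNS EVs (121 to 130.4 CPM) overlapped and no others did.

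Within all tRNA counts the family was small. It made up 0.269% in D389N EVs, 0.345% in Dis3l2r EVs, 0.482% in Vector EVs, 0.538% in shDis3l2 EVs and 0.638% in shNS EVs, against 0.796% in shDis3l2 cells and 1.15% in shNS cells. By this measure every EV library lay below both cell libraries, the reverse of the order in CPM. The unspliced sum alone went the other way, at 0.0162% to 0.0341% of tRNA counts in the 5 EV libraries, against 0.00950% in shDis3l2 cells and 0.0137% in shNS cells. Its genes differed. As a share of tRNA counts, unspliced 1-1 had EV over cell log2 ratios of 3.57 (shDis3l2 lines) and 3.38 (shNS lines). Unspliced 2-1, 3-1 and 5-1 had 0.43, -0.01 and 0.01 in the shDis3l2 lines and 0.16, -1.60 and -2.57 in the shNS lines. Among arginine tRNAs, the family's share was 1.85% in D389N EVs, 2.39% in Dis3l2r EVs, 3.87% in Vector EVs, 4.14% in shDis3l2 EVs and 4.60% in shNS EVs, against 5.15% in shDis3l2 cells and 11.7% in shNS cells. It ranked between 30 and 36 of 51 anticodon families in all 7 libraries.

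Of the unspliced rows, tRNA-Arg-TCT-1-1 differed most between vesicles and cells. It had 86.3 CPM in D389N EVs, 98.7 in Dis3l2r EVs, 129 in Vector EVs, 187 in shDis3l2 EVs and 92.2 in shNS EVs, against 2.02 in shDis3l2 cells and 1.61 CPM in shNS cells. The cell values rested on 65.4 counts in shDis3l2 cells and 59.7 in shNS cells, and the EV and cell libraries lay far apart. Unspliced tRNA-Arg-TCT-2-1 had 13.5, 13.8, 28.1, 15.6 and 9.57 CPM in D389N, Dis3l2r, Vector, shDis3l2 and shNS EVs, against 1.48 CPM in shDis3l2 cells and 1.57 CPM in shNS cells. Here too the EV and cell libraries did not overlap. Unspliced tRNA-Arg-TCT-3-1 had 20.5, 24.7, 37.8, 34.6 and 19.8 CPM in the same 5 EV libraries, against 4.48 CPM in shDis3l2 cells and 11.0 CPM in shNS cells. Its EV libraries again lay above both cell libraries, with the smallest gap between shNS EVs and shNS cells.

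Gene 5-1 showed no such separation. Its unspliced row had 0.774 CPM in D389N EVs, 10.3 in Dis3l2r EVs, 11.4 in Vector EVs, 5.11 in shDis3l2 EVs and 4.26 in shNS EVs, against 0.649 in shDis3l2 cells and 4.64 CPM in shNS cells. Vesicles and cells overlapped, and the lowest values were those of D389N EVs (16.2 counts) and shDis3l2 cells (21 counts), whose intervals overlapped. The row of gene 4-1 had 18 counts in Vector EVs, 4 in shDis3l2 EVs and 0 in the other 5 libraries. As a one-sided 95% limit a count of 0 allows up to 3 counts, or 0.0810 CPM in shNS cells and 0.223 CPM in Dis3l2r EVs, the deepest and the shallowest library. Gene 4-1 was therefore not measured in the row-by-row comparisons of pairs of libraries.

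The spliced rows had narrower relative differences. Spliced tRNA-Arg-TCT-1-1 had 1106 CPM in D389N EVs, 1276.5 in Dis3l2r EVs, 1791 in Vector EVs, 2124 in shDis3l2 EVs and 2940.3 in shNS EVs, against 432 in shDis3l2 cells and 1012 CPM in shNS cells. D389N EVs were thus only slightly above shNS cells. Spliced tRNA-Arg-TCT-2-1 had 418, 478, 900.4, 733 and 789.8 CPM in D389N, Dis3l2r, Vector, shDis3l2 and shNS EVs, against 126 CPM in shDis3l2 cells and 186 CPM in shNS cells. Spliced tRNA-Arg-TCT-3-1 had 361, 480.1, 760.3, 694 and 892 CPM in those EV libraries, against 148 CPM in shDis3l2 cells and 312 CPM in shNS cells. For genes 1-1, 2-1 and 3-1 every EV library lay above both cell libraries. Spliced tRNA-Arg-TCT-5-1 had 7.56, 36.2, 46.4, 25.5 and 42.6 CPM in the same EV libraries, against 9.68 CPM in shDis3l2 cells and 46.4 CPM in shNS cells. Vesicles and cells overlapped for this row, as they did for its unspliced partner, and D389N EVs and shDis3l2 cells were again the 2 lowest libraries.

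**Figure D1:**
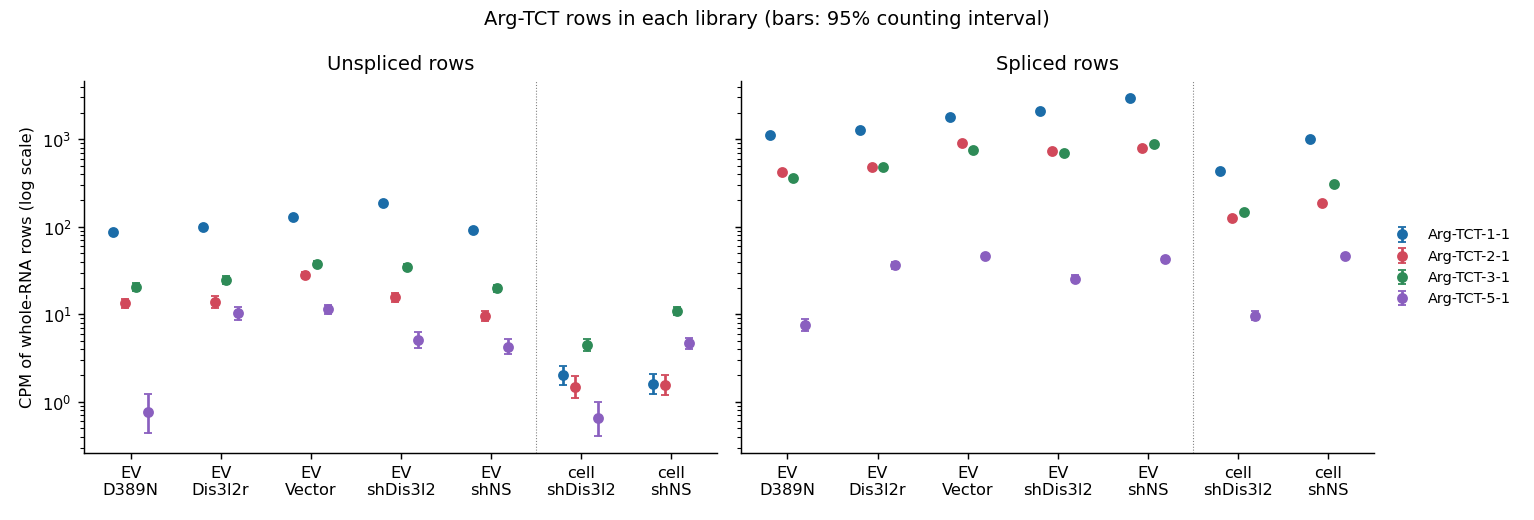
CPM of whole-RNA rows, on a log scale, of the unspliced (left) and spliced (right) rows of 4 tRNA-Arg-TCT genes in the 5 EV and 2 cell libraries. Points are single libraries with 95% counting intervals. Unspliced 1-1 stands at 86.3 to 187 CPM in EVs and at 2.02 and 1.61 CPM in shDis3l2 and shNS cells, while gene 5-1 is lowest in D389N EVs and shDis3l2 cells.

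The makeup of the unspliced RNA differed between the compartments. Gene 1-1 gave 71.3%, 66.9%, 62.3%, 77.1% and 73.2% of the family's unspliced counts in D389N, Dis3l2r, Vector, shDis3l2 and shNS EVs, against 23.4% in shDis3l2 cells and 8.56% in shNS cells. Gene 3-1 gave 14.3% to 18.3% in EVs, against 51.9% in shDis3l2 cells and 58.4% in shNS cells. By counts, with no correction for length, the leading unspliced gene was thus 1-1 in all 5 EV libraries and 3-1 in both cell libraries. Among spliced counts gene 1-1 led everywhere, with 51.2% to 63.0% in EVs, 60.3% in shDis3l2 cells and 65.0% in shNS cells.

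Vesicles and cells of the same line were then compared to ask how tRNA-Arg-TCT is represented in EVs. With 1 library a side there is no test, so a row was called higher or lower by a rule of size: a sum of 100 counts or more for the pair, a change of 2-fold or more after scaling to whole-RNA totals, and an interval that leaves out a ratio of 1. In shDis3l2 EVs against shDis3l2 cells, all 8 measured rows were called higher, where 33.1% of all rows measured were higher. The log2 ratio was 6.54 (6.18 to 6.92) for unspliced tRNA-Arg-TCT-1-1, 3.39 (2.95 to 3.86) for unspliced 2-1, 2.95 (2.69 to 3.22) for unspliced 3-1 and 2.97 (2.28 to 3.73) for unspliced 5-1. The log2 ratios of the spliced rows were lower, at 2.30, 2.54, 2.23 and 1.40 for genes 1-1, 2-1, 3-1 and 5-1. In shNS EVs against shNS cells, 5 of 8 rows were called higher and 0 lower, where 32.0% of all rows measured were higher. The rows past the rule were unspliced 1-1 at 5.83 (5.46 to 6.23), unspliced 2-1 at 2.61 (2.19 to 3.06), and spliced 1-1, 2-1 and 3-1 at 1.54, 2.08 and 1.51. Unspliced 3-1 stood at 0.85 (0.66 to 1.05), and both rows of gene 5-1 stood at -0.12.

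These ratios can be read against other tRNAs. The median log2 ratio of the 8 tRNA-Arg-TCT rows was 2.75 in the shDis3l2 lines, against 2.67 over 163 tRNA gene rows measured, and 1.53 in the shNS lines, against 1.98 over 164. Most tRNA gene rows were also called higher, 134 of 163 in the shDis3l2 lines and 128 of 164 in the shNS lines. Of 14 spliced tRNA rows measured, 8 and 7 were called higher in these lines. Unspliced 1-1 ranked 3 of 163 and 5 of 164, and unspliced 2-1 ranked 54 and 60. Unspliced 3-1 and 5-1 ranked 71 and 69 in the shDis3l2 lines and 133 and 142 in the shNS lines. Each of the spliced rows lay below that median in the shDis3l2 lines, and spliced 1-1, 3-1 and 5-1 also did in the shNS lines. Scaling to tRNA totals was an alternative chosen after seeing the data for these pairs. It shifted every log2 ratio by -2.96 in the shDis3l2 lines and by -2.45 in the shNS lines. Under it 1 row was called higher in both, and 1 and 3 rows lower, with no share over all rows taken.

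**Figure D2:**
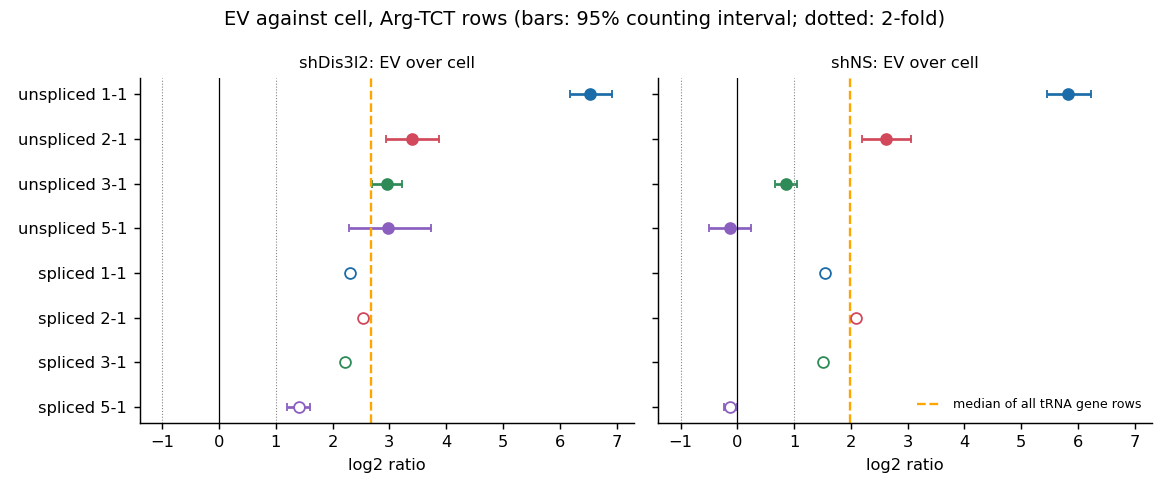
Log2 ratio of EV over cell counts, scaled to whole-RNA totals, for the 8 measured tRNA-Arg-TCT rows in the shDis3l2 lines (left) and the shNS lines (right), with 95% counting intervals. Filled points are unspliced and open points spliced rows, dotted lines mark a 2-fold ratio, and the dashed line is the median of all tRNA gene rows, at 2.67 and 1.98. Unspliced 1-1 stands far to the right at 6.54 and 5.83.

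A fit of all 7 libraries with edgeR's quasi-likelihood test compared the 5 EV libraries with the 2 cell libraries, taking the Dis3l2 class of the line as a covariate, with Benjamini-Hochberg adjustment over 642 rows. Libraries of a compartment are different lines, so the spread includes the line. The rows of genes 1-1, 2-1, 3-1 and 5-1 passed the filter on low counts, 8 of 9 members. Of these 8, 6 rose in EVs and 0 fell at an adjusted p threshold of 0.05, where 31.2% of all rows tested rose. Unspliced tRNA-Arg-TCT-1-1 was higher by a log2 fold change of 5.97 (SE 0.720, edgeR adjusted p = 6.99e-06), unspliced 2-1 by 3.29 (SE 0.877, adjusted p = 0.00414) and unspliced 3-1 by 1.84 (SE 0.756, adjusted p = 0.0396). For the spliced rows of 1-1, 2-1 and 3-1 the log2 fold changes were 1.50, 2.11 and 1.58, with SEs of 0.504, 0.512 and 0.517 and edgeR adjusted p-values of 0.0155, 0.00222 and 0.0138. In each of these 6 rows all 5 EV libraries lay above both cell libraries. Unspliced 5-1 had 1.73 (SE 1.25, edgeR adjusted p = 0.214) and spliced 5-1 had 0.55 (SE 0.780, edgeR adjusted p = 0.519).

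The outcome for the spliced rows depended on what EV counts were measured against. Library sizes from tRNA totals put the median log2 fold change of all rows at -4.19, against -1.33 with whole-RNA totals. There 1 of 8 rows was called higher (unspliced 1-1, 3.24) and 3 lower. Of all 654 rows tested, 42 were higher and 395 lower. The 3 lower rows of the family were spliced 1-1 at -1.21 (edgeR adjusted p = 0.0277), spliced 3-1 at -1.13 (edgeR adjusted p = 0.0405) and spliced 5-1 at -2.12 (edgeR adjusted p = 0.0249). With TMM (trimmed mean of M values) scaling, 3 rows were called higher: unspliced 1-1, unspliced 2-1 and spliced 2-1. Of all 642 rows tested, 167 were higher with that scaling. With the shDis3l2 cell library left out, which left 1 cell library, the log2 fold changes of spliced 1-1 and 3-1 fell to 1.06 and 1.14. They were 1.50 and 1.58 with all 7 libraries, and the calls of both needed that cell library. The call of unspliced 3-1 was the least stable, since it was lost without any 1 of 5 of the 7 libraries (D389N EVs and shNS cells being the exceptions). Its log2 fold change was 1.02 without shDis3l2 cells and 2.79 without shNS cells. It was also lost with no filter (edgeR adjusted p = 0.0856) and in the 4 libraries of the parental lines, paired by line (edgeR adjusted p = 0.0837). Spliced 1-1 was lost without shNS EVs as well (edgeR adjusted p = 0.0615). DESeq2 called 8 of 9 rows higher, both rows of gene 5-1 included, where 264 of 805 rows tested were higher. It put the median log2 fold change of all rows at 2.06, against -1.33 in the main fit.

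The unspliced share of each gene, its unspliced counts over unspliced plus spliced counts, needs no scaling between libraries. Summed over the 4 genes with both rows it was 6.01% in D389N EVs, 6.10% in Dis3l2r EVs, 5.57% in Vector EVs, 6.34% in shDis3l2 EVs and 2.63% in shNS EVs, against 1.19% in shDis3l2 cells and 1.19% in shNS cells. All EV libraries lay above both cell libraries. The 4 EV libraries from lines with the hairpin against Dis3l2 lay close together, between 5.57% and 6.34%, and shNS EVs lay below them, with an interval of 2.53% to 2.72%. Dis3l2r EVs (5.84% to 6.37%) and D389N EVs (5.79% to 6.24%) had overlapping intervals, and both lay above Vector EVs (5.43% to 5.72%). The mean spliced share was 94.7% over the 5 EV libraries and 98.8% over the 2 cell libraries, a difference of -4.14 percentage points. A two-sided exact permutation test gave p = 0.0952, the smallest this design allows.

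The difference was smaller without gene 1-1. Its unspliced share was 7.24%, 7.18%, 6.72%, 8.08% and 3.04% in D389N, Dis3l2r, Vector, shDis3l2 and shNS EVs, against 0.463% in shDis3l2 cells and 0.160% in shNS cells. Without gene 1-1 the difference in mean spliced share between EVs and cells came to -1.10 points (two-sided exact permutation p = 0.286). The share of gene 2-1 was 3.12%, 2.81%, 3.03%, 2.08% and 1.20% in those EV libraries, against 1.17% in shDis3l2 cells and 0.834% in shNS cells. Its shNS EV interval (1.05% to 1.37%) overlapped that of shDis3l2 cells (0.860% to 1.54%). For gene 3-1 the share was 5.38%, 4.89%, 4.74%, 4.75% and 2.17% in the EV libraries, against 2.93% in shDis3l2 cells and 3.40% in shNS cells. Here shNS EVs lay below both cell libraries. For gene 5-1 it was 9.20%, 22.2%, 19.7%, 16.7% and 9.10% in the EV libraries, against 6.29% in shDis3l2 cells and 9.10% in shNS cells, so that shNS EVs and shNS cells were level.

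**Figure D3:**
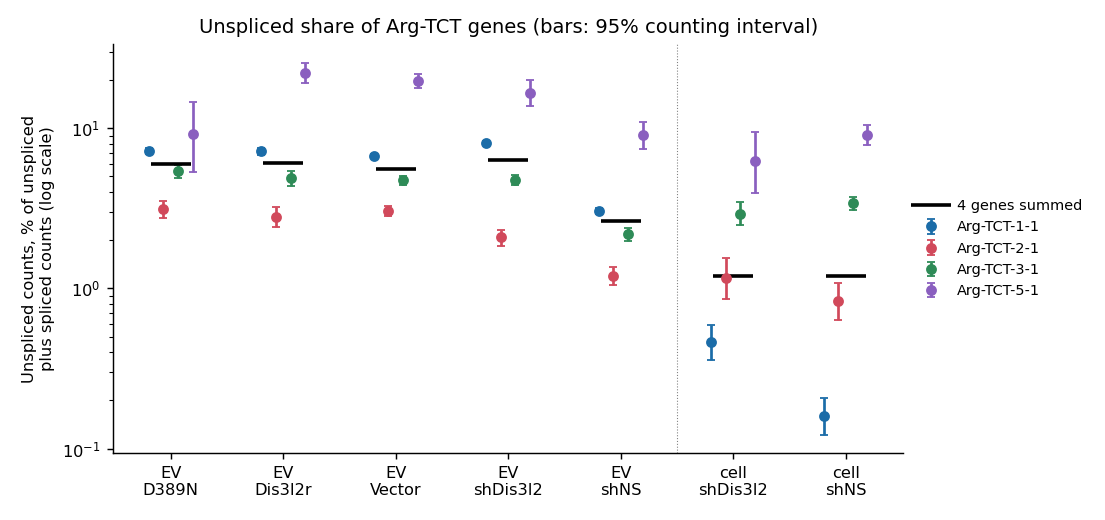
Unspliced counts as a percentage of unspliced plus spliced counts, on a log scale, for 4 tRNA-Arg-TCT genes (points with 95% counting intervals) and for the genes summed (bars) in each library. The summed share is 5.57% to 6.34% in the 4 EV libraries from lines with the Dis3l2 hairpin, 2.63% in shNS EVs and 1.19% in both cell libraries; gene 1-1 spans the widest range.

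Knockdown of Dis3l2 was compared in EVs and in cells, with TMM scaling in both. In shDis3l2 EVs against shNS EVs, 1 of 8 rows was called higher and 0 lower, where 7.06% of all rows measured were higher. That row was unspliced 1-1, at a log2 ratio of 1.11 (1.03 to 1.19), which ranked 8 of 166 tRNA gene rows. Unspliced 2-1 stood at 0.79 (0.54 to 1.05), unspliced 3-1 at 0.90 (0.72 to 1.07) and unspliced 5-1 at 0.35 (-0.07 to 0.77), below the 2-fold limit. The spliced rows stood at -0.38, -0.01, -0.27 and -0.65 for genes 1-1, 2-1, 3-1 and 5-1. Every unspliced row thus stood above 0 and every spliced row below it, but the intervals of unspliced 5-1 and of spliced 2-1 (-0.05 to 0.02) held 0. The summed values were 1.04 (0.97 to 1.11) for unspliced and -0.29 for spliced RNA. The unspliced sum was under 2-fold with DESeq2 size factors, at 0.97, and with unadjusted totals, at 0.95. Unspliced 1-1 was under it with totals without the most abundant cell transcript, at 0.99, and with totals of all rows of the table, at 0.96.

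In shDis3l2 cells against shNS cells, 3 of 8 rows were called lower and 0 higher, where 24.0% of all rows measured were lower. These were unspliced 3-1 at -1.03 (-1.31 to -0.75) and the 2 rows of gene 5-1, unspliced at -2.57 (-3.30 to -1.91) and spliced at -2.0 (-2.17 to -1.82). Unspliced 5-1 was the lowest of 151 tRNA gene rows measured. Unspliced 1-1 stood at 0.58 (0.05 to 1.11) and unspliced 2-1 at 0.19 (-0.39 to 0.77), while spliced 1-1, 2-1 and 3-1 stood at -0.96, -0.30 and -0.81. The summed log2 ratio was -0.86 for unspliced and -0.86 for spliced RNA. In shDis3l2 cells, where the most abundant transcript held 46.1% of counts, scaling to totals shifted each ratio by -0.27, put 5 of 8 rows lower and put unspliced 2-1 at -0.08. Totals without that transcript shifted each by 0.31, put 2 rows lower and left unspliced 3-1 at -0.71. Shares of all rows lower under these other scalings were not taken. The part of that transcript in these ratios was not tested.

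The re-expressed and the mutant enzyme were each set against the empty vector, so both comparisons share the Vector EV library. In Dis3l2r EVs against Vector EVs all 8 rows stood below 0, and 1 was called lower, where 7.38% of all rows measured were lower. That was unspliced 2-1 at -1.09 (-1.33 to -0.86), or -0.89 with tRNA totals, where 0 rows were called. The other unspliced rows stood at -0.46, -0.69 and -0.21 for genes 1-1, 3-1 and 5-1, and the spliced rows between -0.98 and -0.43. In D389N EVs against Vector EVs all 8 rows also stood below 0, and 2 were called lower, where 12.4% of all rows measured were lower. Both belonged to gene 5-1, whose unspliced row stood at -3.65 (-4.47 to -2.92), the lowest of 171 tRNA gene rows, and whose spliced row stood at -2.37 (-2.61 to -2.12). The unspliced rows of genes 1-1, 2-1 and 3-1 stood at -0.33, -0.81 and -0.63. Scaled to totals, which shifted the ratio of every row measured by -0.25, 5 of 8 rows were called lower in D389N EVs. The share of all rows lower under that scaling was not taken. The median over the 8 rows was -0.62 in Dis3l2r EVs, against -0.37 over 166 tRNA gene rows, and -0.81 in D389N EVs, against -0.14 over 171.

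Set directly against Dis3l2r EVs, D389N EVs had the 2 rows of gene 5-1 lower, unspliced at -3.53 (-4.37 to -2.78) and spliced at -2.03 (-2.30 to -1.77), where 21.9% of all rows measured were lower. Unspliced 5-1 was the lowest of 161 tRNA gene rows. The other 6 rows stood between -0.18 and 0.19, and the sums were -0.05 (-0.14 to 0.03) for unspliced and -0.03 for spliced RNA. Scaled to totals, a shift of -0.23, all 8 rows stood below 0.

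Vector EVs against shDis3l2 EVs show how far libraries from lines with the same hairpin and no added enzyme lay apart. Of 8 rows, 1 was called higher, where 8.91% of all rows measured were higher. It was unspliced 5-1 at 1.20 (0.85 to 1.55). DESeq2 size factors shifted every ratio by 0.13 and put 3 of 8 rows higher, with no share over all rows taken. Unspliced 1-1 stood at -0.50, 2-1 at 0.89 and 3-1 at 0.16, and the spliced rows between -0.21 and 0.90. The unspliced rows thus ranged between -0.50 and 1.20 in this pair, beside 0.35 to 1.11 after knockdown in EVs, a pair that shares the shDis3l2 EV library.

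**Figure D4:**
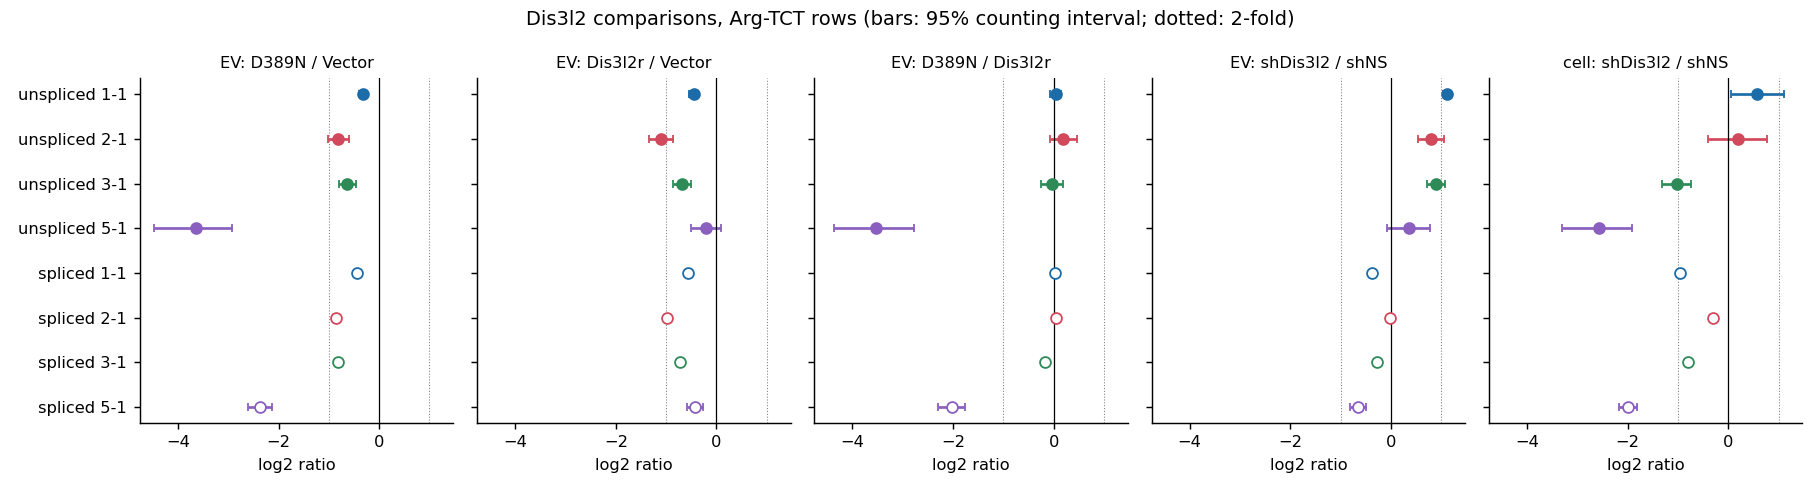
Log2 ratios of the 8 measured tRNA-Arg-TCT rows after TMM scaling, with 95% counting intervals, in D389N over Vector EVs, Dis3l2r over Vector EVs, D389N over Dis3l2r EVs, shDis3l2 over shNS EVs and shDis3l2 over shNS cells. Filled points are unspliced and open points spliced rows. Gene 5-1 stands at -3.65 and -2.37 in D389N over Vector EVs and at -2.57 and -2.0 in shDis3l2 over shNS cells, and unspliced 1-1 is past 2-fold, at 1.11, in knockdown EVs.

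Across lines, 3 EV libraries of genotypes without active Dis3l2 (D389N, Vector and shDis3l2) were set against the 2 of genotypes with it (Dis3l2r and shNS). The class comes from the genotype and was not measured. In edgeR's quasi-likelihood test 0 of 8 rows were called, where 0.174% of all rows tested were called in either direction. Of the 8 rows, 0 had an unadjusted p under 0.05. DESeq2 called 0 of 9 rows of the family, and 1 of all 1212 rows tested. Unspliced 1-1, 2-1 and 3-1 had log2 fold changes of 0.71, 0.95 and 0.71 (SE 0.446, 0.488 and 0.445), each with an edgeR adjusted p of 0.669. Unspliced 5-1 had -0.11 (SE 0.797), and the spliced rows lay between -0.39 and 0.30. The mean spliced share was 94.0% without and 95.6% with active Dis3l2, a difference of -1.61 points (two-sided exact permutation p = 0.6, where 0.2 is the smallest possible).

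The other tRNA families with an intron gave another picture between vesicles and cells. For unspliced RNA in shDis3l2 EVs against shDis3l2 cells, the tRNA-Arg-TCT sum stood at 4.81 (4.64 to 4.99), against -0.21 for Ile-TAT, -1.02 for Leu-CAA and -0.82 for Tyr-GTA. In shNS EVs against shNS cells it stood at 2.74 (2.62 to 2.86), against -1.39 for Ile-TAT, -1.52 for Leu-CAA and -1.63 for Tyr-GTA. With tRNA totals it stood at 0.29, against -3.85, -3.98 and -4.09 for the same families. These sums take all unspliced rows, 5 for Ile-TAT, 4 for Leu-CAA and 10 for Tyr-GTA. The shares that follow take only genes with both rows, 2, 4 and 5 of them. Over those genes the unspliced shares of these 3 families were also larger. Ile-TAT had 67.9%, 53.4%, 75.3%, 69.5% and 41.6% in D389N, Dis3l2r, Vector, shDis3l2 and shNS EVs, against 87.1% in shDis3l2 cells and 81.9% in shNS cells. Leu-CAA had 16.5%, 14.4%, 11.2%, 9.49% and 8.24% in the EV libraries, against 67.6% in shDis3l2 cells and 53.0% in shNS cells. Both families had lower unspliced shares in all 5 EV libraries than in either cell library, the opposite order to the tRNA-Arg-TCT sum. That sum was led by gene 1-1 in EVs, and its genes differed. For gene 3-1, shNS EVs had a share of 2.17%, below shDis3l2 cells (2.93%) and shNS cells (3.40%). In shNS EVs against shNS cells, unspliced 1-1, 2-1, 3-1 and 5-1 stood at 5.83, 2.61, 0.85 and -0.12. Tyr-GTA had 54.6%, 34.8%, 31.0%, 24.9% and 17.5% in the EV libraries, against 16.5% in shDis3l2 cells and 26.5% in shNS cells, so that vesicles and cells overlapped. In all 4 families shNS EVs had the lowest unspliced share of the EV libraries. The difference between families was not tested.

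**Figure D5:**
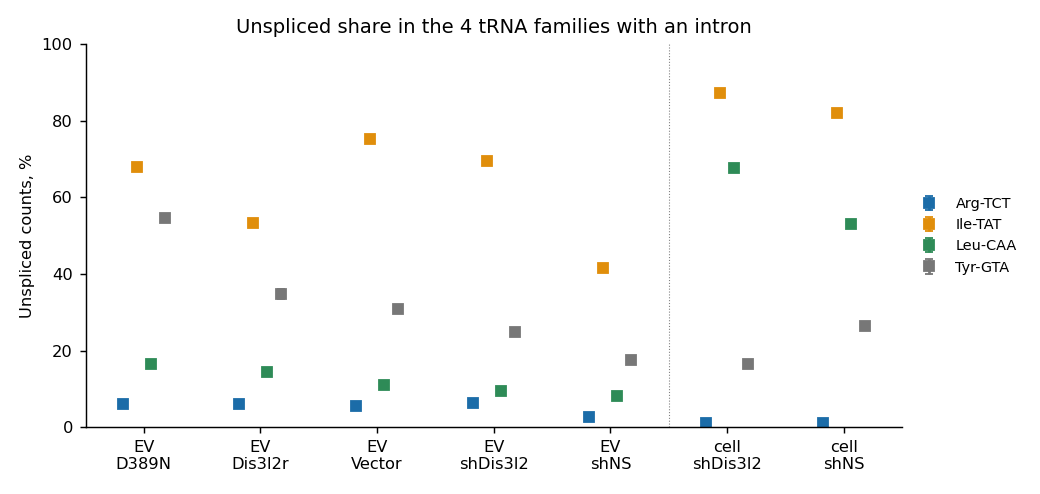
Unspliced counts as a percentage of unspliced plus spliced counts for the 4 tRNA families with an intron, over genes with both rows, in each library. tRNA-Arg-TCT lies lowest in every library, at 2.63% to 6.34% in EVs and 1.19% in both cell libraries, while Ile-TAT and Leu-CAA are higher in cells than in EVs.

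The other arginine families, which have no spliced rows, were all called higher in vesicles. In shDis3l2 EVs against shDis3l2 cells all tRNA-Arg-TCT rows together stood at 2.40, against 2.80, 3.32, 1.63 and 2.50 for Arg-ACG, Arg-CCG, Arg-CCT and Arg-TCG. In shNS EVs against shNS cells tRNA-Arg-TCT stood at 1.60, against 2.32, 4.35, 2.34 and 1.63 for the same families. All tRNAs together stood at 2.96 and 2.45 in these pairs, so of the 5 arginine families Arg-CCG was above that in both and the other 4 were below it. After knockdown in cells tRNA-Arg-TCT stood at -0.86, beside -0.69 for Arg-ACG and -0.90 for Arg-TCG, while Arg-CCG and Arg-CCT were called higher, at 1.17 and 1.10. Scaled to totals, those were under 2-fold, at 0.91 and 0.83. In Dis3l2r and in D389N EVs against Vector EVs tRNA-Arg-TCT stood at -0.68 and -0.63, where Arg-TCG was called lower at -1.17 and -1.16 (-0.96 with tRNA totals for Dis3l2r).

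Rows whose level followed the family most closely were found by Pearson's r of log2(CPM + 1), among 572 other rows with at least 100 counts. Over all 7 libraries the unspliced sum was closest to tRNA-Ser-AGA-2-1 (r = 0.994), tRNA-Gly-TCC-1-1 (0.989), tRNA-Ser-CGA-1-1 (0.984), tRNA-Thr-TGT-1-1 (0.983) and tRNA-Ala-AGC-7-1 (0.983). The spliced sum was closest to tRNA-Asn-GTT-3-1 (0.996), tRNA-Trp-CCA-2-1 (0.996), tRNA-Arg-ACG-1-1 (0.993), tRNA-Trp-CCA-3-1 (0.993) and tRNA-Arg-TCG-3-1 (0.989). These points share the difference between EV and cell libraries, and 117 rows reached an r of 0.9 with the unspliced sum against 33 with the spliced sum. Over the 5 EV libraries alone the unspliced sum was closest to 2 transcripts without a gene name and to tRNA-Ile-TAT-2-3 (0.971), also an unspliced row of a family with an intron. The spliced sum was there closest to tRNA-Val-AAC-5-1 (0.998), tRNA-Val-CAC-2-1 (0.998) and tRNA-Asn-GTT-3-1 (0.997). With 5 points such values are high for many rows, 14 for the unspliced and 34 for the spliced sum at an r of 0.9 or more.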

How the data were processed

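The authors deposited 1 table of estimated counts (expected counts as Salmon gives) per row and library. The tools cutadapt, Novoalign, Salmon and UMI-tools and the builds GRCm38 and mm10 are named, per the submitters' processing notes. Their versions and order, and any deduplication, were not given in the sources used. Per the labels' protocols, cDNA came from template switching by a group II intron reverse transcriptase. Rows for exon, intron and UTR pieces entered only the all-row totals. Counts were rounded for intervals and fits. Ratio intervals are conditional binomial, levels have Poisson and shares Clopper-Pearson intervals, at 95%. PCR copies are not independent molecules. EV and cell pairs were scaled by whole-RNA totals and other pairs by TMM. Fits used edgeR 4.0.16 (filterByExpr, glmQLFit, glmQLFTest) with 4 residual degrees of freedom for compartment and 3 for Dis3l2 class, with DESeq2 1.42.0 as an alternative, under R 4.3.3. The scripts were tested on simulated data. Intervals and permutations used scipy 1.17.1 under Python 3.11.15, tables pandas 2.3.3 and numpy 2.4.6, and figures matplotlib 3.10.9. Every row of the family was named, with sums of the other arginine and intron families, and the 5 most similar rows by r. RefSeq (GRCm38.p6) gave gene positions. Members and lists were chosen with earlier results of these data known. Alternatives were other scalings, count minimums of 20 and 500, a fold limit of 1.5, no filter, no covariate, the 4 parental libraries and leaving out each library.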

Additional observations from a re-analysis of the deposited data

Results flagged for a closer look

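In 2 values of the family, knockdown of Dis3l2 went opposite ways in vesicles and in cells with both counting intervals leaving out 0. For unspliced tRNA-Arg-TCT-3-1, the knockdown log2 ratio in EVs (0.90) minus that in cells (-1.03) was 1.93. For the sum of unspliced tRNA-Arg-TCT, the ratio in EVs (1.04) minus that in cells (-0.86) was 1.90. That sum was led by gene 1-1 in EVs (77.1% in shDis3l2 EVs and 73.2% in shNS EVs) and by gene 3-1 in cells (51.9% in shDis3l2 cells and 58.4% in shNS cells). Unspliced 1-1 stood above 0 in both compartments, at 1.11 in EVs and 0.58 in cells, as did unspliced 2-1, at 0.79 and 0.19. In cells only 3-1 and 5-1, of the 4 unspliced rows measured, stood below 0. Unspliced 5-1 also had opposite signs, at 0.35 in EVs and -2.57 in cells, but its EV interval (-0.07 to 0.77) held 0. With 1 library per line and compartment, none of these differences was tested.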

How the results depend on the processing

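The labels give no replicate numbers, and EVs and cells pair by line in the parental lines alone. A fit of those 4 libraries with the line as a term called 5 rows higher, without unspliced 3-1 (edgeR adjusted p = 0.0837). Of all 604 rows tested in it, 176 were higher. For the sums, counts and shares, 138 values under alternatives were classed as unchanged, 7 as changed in direction and 8 as gaining a call. A further 8 were classed as losing a call or falling in count. The unchanged class also held counts of called rows that differed from the 6 of the main fit of EVs against cells. That count was 4 without shNS EVs, where 170 of all 629 rows tested were higher, and 8 with DESeq2, where 264 of 805 were. It was 5 without Dis3l2r, shDis3l2 or Vector EVs, where 186 of 629, 188 of 631 and 188 of 622 rows were higher. It was also 5 with no filter, where 168 of 1403 rows were higher, and in the parental libraries alone. For the pairs of EVs and cells, scaling to tRNA totals, to all rows and to totals without the most abundant cell transcript was chosen after seeing the data. With tRNA totals, EVs against cells gave 0.29 for unspliced and -0.87 for spliced RNA in the shNS lines and -0.64 for spliced RNA in the shDis3l2 lines, and the fit of EVs against cells called 4 rows. Turned negative there were spliced 1-1 (-1.21), 3-1 (-1.13) and 5-1 (-2.12), which were called lower. Spliced 2-1 (-0.62), unspliced 3-1 (-0.82) and unspliced 5-1 (-0.89) also turned negative and were not called. The rows of gene 5-1 had not been called in the main fit. Of all 654 rows tested with tRNA totals, 42 were higher and 395 lower. With TMM the fit of EVs against cells called 3 rows, where 167 of all 642 rows tested were higher. Without each EV library in turn it called 4 to 6, where 170 to 200 of all rows tested were higher. Leaving out shDis3l2 cells left 1 cell library and put unspliced 3-1 at 1.02. Knockdown in cells passed 2-fold with totals (unspliced -1.13, spliced -1.12) and with all-row totals (-1.21 and -1.20), and passed a 1.5-fold limit at -0.86 for both. Knockdown in EVs fell short for unspliced RNA with totals (0.95), DESeq2 size factors (0.97), totals of all rows (0.89) and totals without the most abundant cell transcript (0.92). Spliced RNA passed a 1.5-fold limit in Dis3l2r (-0.69) and D389N (-0.63) against Vector EVs. D389N against Dis3l2r EVs gave 0.11 for unspliced and 0.14 for spliced RNA with DESeq2 size factors. Spliced RNA in Vector against shDis3l2 EVs gave -0.032 with totals, -0.15 with tRNA totals and -0.052 without that transcript. The cause was not tested. Single libraries, rows of under 100 counts in cells and reads shared between rows limit the precision.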
